A study of Homo sapiens with 6 samples.

Results

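The E2F family was followed through a table of 45033 transcript records measured on 6 arrays, using the genes E2F1 to E2F8 and their dimerization partners TFDP1 and TFDP2. Members were taken by gene symbol, and 9 of the 10 had a record, with exactly 1 record each, among 17185 named genes. E2F6 had no record named here and was not analysed. All arrays came from MDA-MB-231 cells, a human breast cancer line of the triple-negative kind, grown in DMEM. The 3 control cultures received 0 μM drug and the 3 treated cultures 3.75 μM DCC-2036, each for 48 h. DCC-2036 (rebastinib) blocks the tyrosine kinase ABL1 and, among others, the receptor kinase TEK. The experiments are described as independent, and no other genotype or treatment is given. A single cell line limits the groups as a model, and 3 arrays per group limit the precision of every value.

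E2F proteins bind promoters of genes for DNA synthesis and cell cycle entry, most of them as heterodimers with a DP protein, TFDP1 or TFDP2. E2F1, E2F2 and E2F3 are activators, held in check by the retinoblastoma protein until cyclin-dependent kinases phosphorylate it. E2F4 and E2F5 mostly repress together with the related pocket proteins in resting cells, E2F6 represses without pocket proteins, and the atypical E2F7 and E2F8 bind DNA without a DP partner and repress E2F target genes later in the cycle. Several E2F genes are themselves E2F targets, so their promoters are shown before the values.

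Promoter sequences came from RefSeq (GRCh38.p14), which had entries for 8 of the 10 members. E2F5 and E2F8 had no entry, so their promoters were not searched. Each window ran from 250 bases before a gene's start to 50 after it. The search used a form of the E2F consensus, TTTNNCG with C or G at each N, on both strands. Each match is called an E2F word below. The 150 bases upstream of the start are printed 5′ to 3′ on the gene's strand for the 3 activators, which held such words, and for E2F4 and E2F7, which did not. Capitals mark the words.
E2F1, chr20:33686386-33686535, minus strand: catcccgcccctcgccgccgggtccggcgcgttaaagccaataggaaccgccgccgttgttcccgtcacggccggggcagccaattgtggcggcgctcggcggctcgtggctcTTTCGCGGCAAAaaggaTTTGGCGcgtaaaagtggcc
E2F2, chr1:23531234-23531383, minus strand: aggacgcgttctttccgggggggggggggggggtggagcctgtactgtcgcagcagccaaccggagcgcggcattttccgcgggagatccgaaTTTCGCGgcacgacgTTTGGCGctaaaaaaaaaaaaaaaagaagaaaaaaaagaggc
E2F3, chr6:20401729-20401878, plus strand: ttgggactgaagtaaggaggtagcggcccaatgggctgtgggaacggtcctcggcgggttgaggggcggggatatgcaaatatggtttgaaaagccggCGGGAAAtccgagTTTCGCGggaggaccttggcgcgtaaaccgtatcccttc
E2F4, chr16:67192005-67192154, plus strand: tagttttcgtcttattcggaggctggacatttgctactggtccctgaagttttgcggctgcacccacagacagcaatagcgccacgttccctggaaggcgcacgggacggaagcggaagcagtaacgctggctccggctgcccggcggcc
E2F7, chr12:77065570-77065719, minus strand: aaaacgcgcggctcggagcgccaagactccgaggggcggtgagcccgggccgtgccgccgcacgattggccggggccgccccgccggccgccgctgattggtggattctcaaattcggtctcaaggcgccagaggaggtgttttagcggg

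The E2F1 window held 3 words, and 2 of them overlapped (first bases 37 and 32 before the start), with the third 20 bases before it. E2F2 held 2 words, starting 57 and 42 bases before its start. E2F3 held 2 at its upstream start, 52 and 39 bases before it, and 0 at a second, downstream start. In all 3 activators the words therefore lay within the last 60 bases before the start. TFDP1 held 1 word 119 bases before its start, and 1 of the 3 TFDP2 windows held a word, after the start. E2F6, which had no named record here, held 2. Of all 35116 promoter windows in the table, 8.67% held at least 1 word and 0.681% at least 2. Counted by gene, from the window with the most words, the shares were 13.9% and 1.25% of 13780 genes with a named record and a window. The sequence TTTGAA, the cell cycle homology element read by MuvB complexes, occurred on either strand in 15.2% of windows and among these members in E2F3 and in 2 TFDP2 windows. A word in a window describes its letters and not a bound site, and the absence of these words in the E2F4 and E2F7 windows says nothing about whether E2F proteins bind there.

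The question addressed here was how transcripts of the family differ between drug-treated and control cells. The 3 activators and the 2 atypical repressors were lower with DCC-2036, by 2.26-fold to 6.06-fold, and both DP partners were lower by 1.54-fold and 2.22-fold. The canonical repressors did not pass the test: E2F4 had a log2 change of 0.02 and E2F5 of -0.67. In limma with Benjamini-Hochberg adjustment over all 17185 genes, 7 of the 9 measured members fell at an adjusted p under 0.05 and 0 rose, where 16% of all genes fell and 13.1% rose. In the same 7 members every treated value lay below every control value, which held for 24.3% of all genes. The median log2 change was -1.18 over the 9 members and 0.02 over all genes. The arrays read pooled cells, so fewer cells making a transcript and less of it per cell cannot be told apart.

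**Figure D1:**
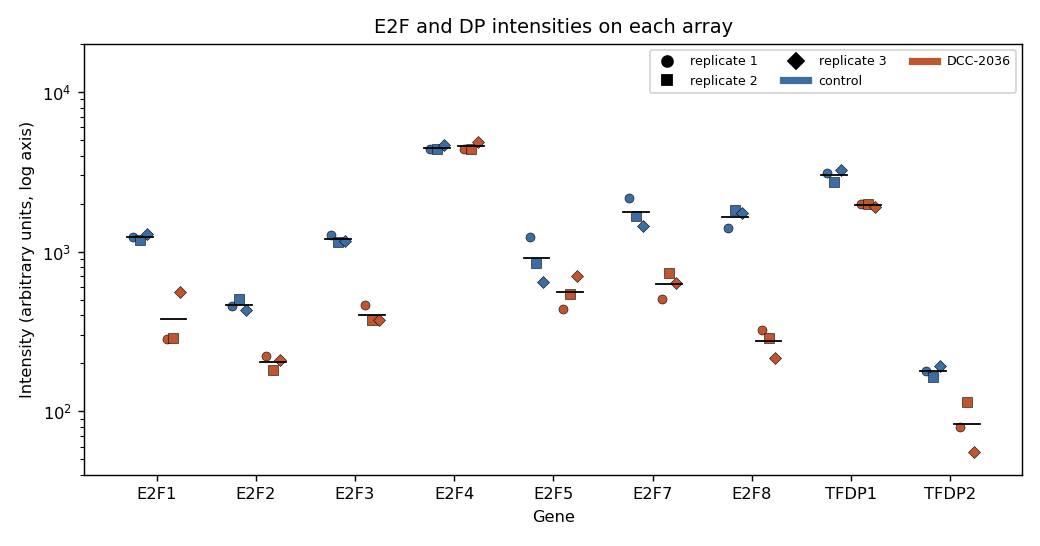
Intensity of each measured member on each array (log axis, arbitrary units). Blue symbols are control and orange symbols DCC-2036 arrays, symbol shape gives the replicate number and black lines the means of 3 arrays. E2F4 lies at the same level in both groups, between 4379 and 4879, while for E2F8 the groups are far apart.

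Intensities are linear array signals in arbitrary units, and since records differ in brightness for reasons other than abundance, levels were not compared between genes. E2F1, the activator most often linked to both proliferation and cell death, had intensities of 1233, 1177 and 1285 in control replicates 1, 2 and 3 and of 285, 288 and 555 in DCC-2036 replicates 1, 2 and 3. The groups did not overlap, and DCC-2036 replicate 3 stood above the other treated arrays. Its log2 change was -1.78 ± 0.28 (SE, limma adjusted p = 0.0063), a 3.44-fold lower level, and -2.10 without DCC-2036 replicate 3. E2F2, an activator that overlaps in function with E2F1, had 453, 507 and 428 in the control arrays and 223, 180 and 210 with DCC-2036. Every treated value was below every control value, with a log2 change of -1.18 ± 0.15 (limma adjusted p = 0.00366). E2F3, the activator known to drive S phase entry in many cell types, had 1279, 1146 and 1163 in the control arrays and 460, 374 and 374 with DCC-2036. Its groups lay far apart relative to their spread, with a log2 change of -1.57 ± 0.15 (limma adjusted p = 0.00159).

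E2F4, the most abundant E2F of resting cells in many tissues, had 4427, 4411 and 4629 in the control arrays and 4419, 4379 and 4879 with DCC-2036. The groups overlapped and the highest value was that of DCC-2036 replicate 3. The log2 change of 0.02 had a 95% interval from -0.30 to 0.34, so that interval leaves out a fall as large as that of any activator (E2F2, the smallest, fell by 1.18 on the log2 scale). E2F5, the p130-associated repressor, had 1232, 848 and 645 in the control arrays and 435, 546 and 699 with DCC-2036. It varied widely within the control group, and the lowest control value lay below the highest treated one. Its log2 change was -0.67 with a 95% interval from -1.38 to 0.04 (limma adjusted p = 0.138). With each array left out in turn, the change ran from -0.89 to -0.43. The value of -0.43 came without control replicate 1, its brightest array.

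E2F7, an atypical repressor with a pair of DNA-binding domains, had 2157, 1667 and 1456 in the control arrays and 505, 740 and 639 with DCC-2036. The groups did not overlap, and the log2 change was -1.48 ± 0.22 (limma adjusted p = 0.0052). E2F8, the other atypical member, had 1400, 1823 and 1750 in the control arrays and 322, 288 and 214 with DCC-2036. All treated values were far below the control values. Its log2 change of -2.60 ± 0.21 (limma adjusted p = 0.00105) had the largest size in the family, a 6.06-fold lower level, and 0.588% of all genes had a more negative change.

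TFDP1, the main DP partner in most cells, had 3127, 2725 and 3227 in the control arrays and 1978, 1995 and 1901 with DCC-2036. The treated arrays were tightly grouped below the controls, with a log2 change of -0.62 ± 0.14 (limma adjusted p = 0.0195). This call was lost when control replicate 1 (-0.60) or 3 (-0.58), or DCC-2036 replicate 2 (-0.64) or 3 (-0.60), was left out. TFDP2, its paralog, was dim, with 179, 163 and 192 in the control arrays and 79.2, 113.6 and 55.6 with DCC-2036. The treated values spread over more than the control values but stayed below them, and DCC-2036 replicate 3 fell into the range of the dimmest 25% of records, below 74.1. The log2 change was -1.15 ± 0.27 (limma adjusted p = 0.0229), and the call was lost when control replicate 1 (-1.15), 2 (-1.21) or 3 (-1.09), or DCC-2036 replicate 1 (-1.15), was left out.

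**Figure D2:**
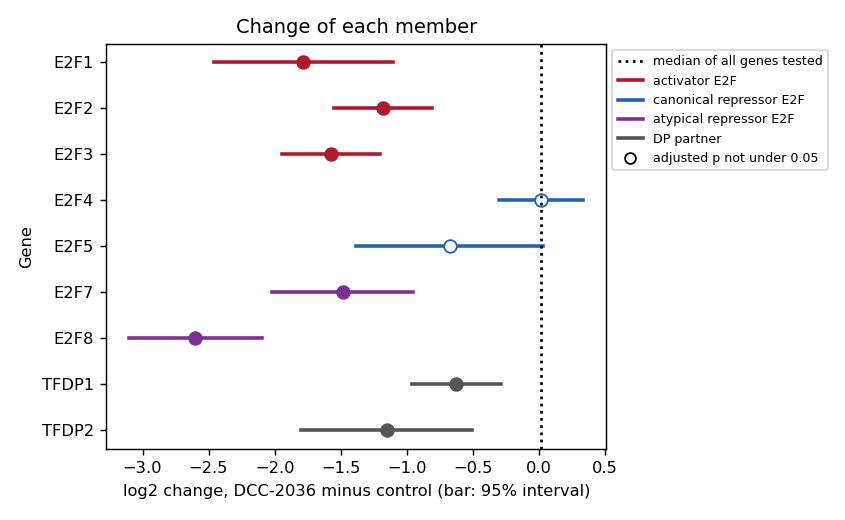
Log2 change of each measured member (DCC-2036 minus control, circle) with its 95% interval from limma (bar), coloured by class. Filled circles passed at an adjusted p under 0.05, and the dotted line is the median of all genes. The intervals of E2F4 and E2F5 reach 0, and those of the other 7 members lie below it.

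Ordered by log2 change, the members ran from E2F8 through E2F1, E2F3, E2F7, E2F2, TFDP2, E2F5 and TFDP1 to E2F4. The 95% interval of E2F8 (-3.10 to -2.10) overlapped those of E2F1 (-2.46 to -1.10) alone, while E2F1, E2F3, E2F7, E2F2 and TFDP2 had intervals that all overlapped one another. Differences between members were followed within each array, relative to the control mean. E2F8 minus E2F7 was -0.57, -1.28 and -1.49 in DCC-2036 replicates 1, 2 and 3 and -0.55, 0.21 and 0.34 in the control arrays, so the groups lay apart only by a narrow margin. E2F1 minus E2F3 was -0.73, -0.42 and 0.53 with DCC-2036 against -0.10, -0.01 and 0.10 in the controls, with no common direction. The mean of the 3 activators minus E2F4 was -1.49, -1.67 and -1.44 in the treated arrays, against controls between -0.07 and 0.04. The mean of the activators minus that of the atypical repressors was 0.56, 0.17 and 0.87 with DCC-2036 against -0.01, -0.04 and 0.06 in the controls, so the mean of the atypical pair lay below that of the activators on each treated array. E2F8 carried this in DCC-2036 replicate 2, where E2F7 (-1.23) lay above all 3 activators. These within-array differences were not tested.

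**Figure D3:**
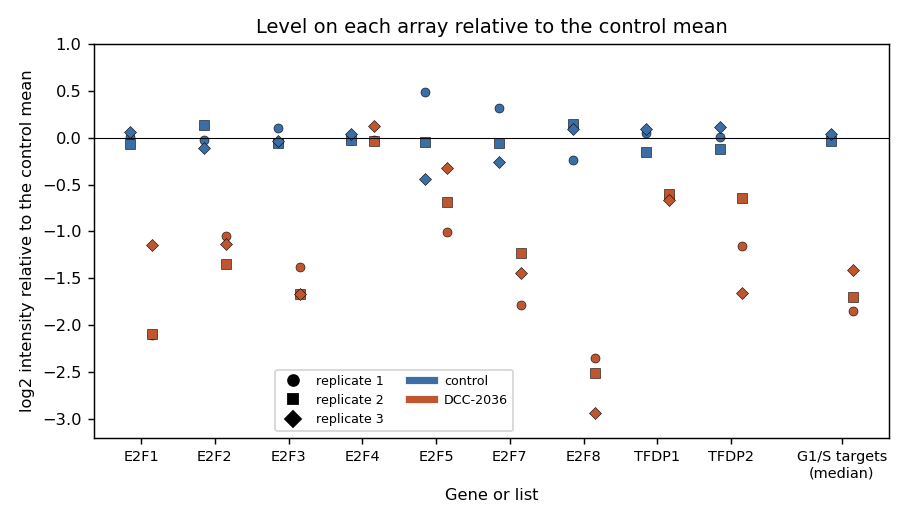
Log2 intensity of each member on each array relative to its control mean, with the median of 32 G1/S target genes at the right. Blue is control and orange DCC-2036, and shape gives the replicate number. DCC-2036 replicate 3 (orange diamonds) is the highest treated array for E2F1, E2F4, E2F5 and the target median. It is the lowest for E2F3, E2F8, TFDP1 and TFDP2.

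The treated arrays did not rank alike for all members. DCC-2036 replicate 3 was the highest treated array for E2F1 (log2 level relative to the control mean -1.15, against -2.11 and -2.09 in replicates 1 and 2) and for E2F5 (-0.33). It was the lowest for E2F8 (-2.94, against -2.35 and -2.51) and for TFDP2 (-1.66, against -1.16 and -0.64). The median of the G1/S targets was -1.85, -1.70 and -1.42 in DCC-2036 replicates 1, 2 and 3. It was highest in the array where E2F1, E2F4 (0.12) and E2F5 were highest. In that array E2F3 (-1.67), E2F8, TFDP1 (-0.67) and TFDP2 were lowest. With 3 treated arrays, whether any of these ranks are linked was not tested.

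Among genes that act on E2F proteins, 2 of the 3 pocket proteins fell and 0 rose, against 16% and 13.1% of all genes. RBL1 (p107), a partner of the repressor E2Fs and itself an E2F target, fell by 2.20 on the log2 scale, from 943, 898 and 1111 in the control arrays to 225, 162 and 264 with DCC-2036 (limma adjusted p = 0.00167). RB1, the retinoblastoma protein, fell by 1.09 on the log2 scale (limma adjusted p = 0.0039). RBL2 (p130), the pocket protein of resting cells, had 221, 245 and 259 in the control arrays and 228, 215 and 295 with DCC-2036, and the groups overlapped. Of 6 D-type cyclin and G1 kinase genes, 4 fell, 1 rose and 1 did not pass, against the same shares of all genes. CDK2, the kinase of cyclins E and A, went from 6132, 5962 and 6162 in the control arrays to 677, 1262 and 1172 (-2.60 ± 0.26). The cyclin D1 gene CCND1 (-1.20), CDK4 (-0.86) and CDK6 (-1.11) also fell, and the cyclin D3 gene CCND3 rose (0.70 ± 0.15). The CCND3 call was lost when control replicate 1 (0.68) or 2 (0.70), or DCC-2036 replicate 2 (0.59), was left out, and that of CDK6 without control replicate 1 (-1.12) or 2 (-1.07).

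Of 32 measured E2F targets of the G1/S transition, 26 fell, 0 rose and 6 did not pass, against 16% of all genes falling, and the list median was -1.74 against 0.02 for all genes. CDC25A, the phosphatase that activates CDK2, had 1430, 1403 and 1552 in the control arrays and 352, 354 and 342 with DCC-2036 (-2.06 ± 0.13, limma adjusted p = 0.000763). POLA1, the polymerase of the primase complex that starts new DNA strands (-2.21), MCM7, a subunit of the replicative helicase (-2.16), and FEN1, a nuclease that processes Okazaki fragments (-2.13), fell to a like extent. The 6 that did not pass were CDT1 (0.08), SLBP (-0.04), DNMT1 (-0.15), CDCA7 (-0.48), EZH2 (-0.57) and ORC1 (-0.99), named after their values were seen. Treated values all lay below control values for 29 of the 32 targets, CDCA7, EZH2 and ORC1 among them, against 24.3% of all genes. Promoter windows were available for 28 of the targets, of which 67.9% held at least 1 E2F word, against 13.9% of the 13780 tested genes with a window.

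Over those 13780 genes, chosen for this description after the data were seen, 22.4% of the 1913 with at least 1 E2F word fell and 11.9% rose, with a median log2 change of -0.11. The 172 genes with 2 or more words are part of those 1913. They hold the 3 activator genes and also G1/S targets described above, so they are not a separate set. Of the 172, 33.7% fell, 11.6% rose and the median was -0.27. Among the 11867 genes without a word, 15.5% fell, 13.4% rose and the median was 0.03. The median G and C content of the windows was 64% for genes with at least 1 word and 63% for genes without.

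**Figure D4:**
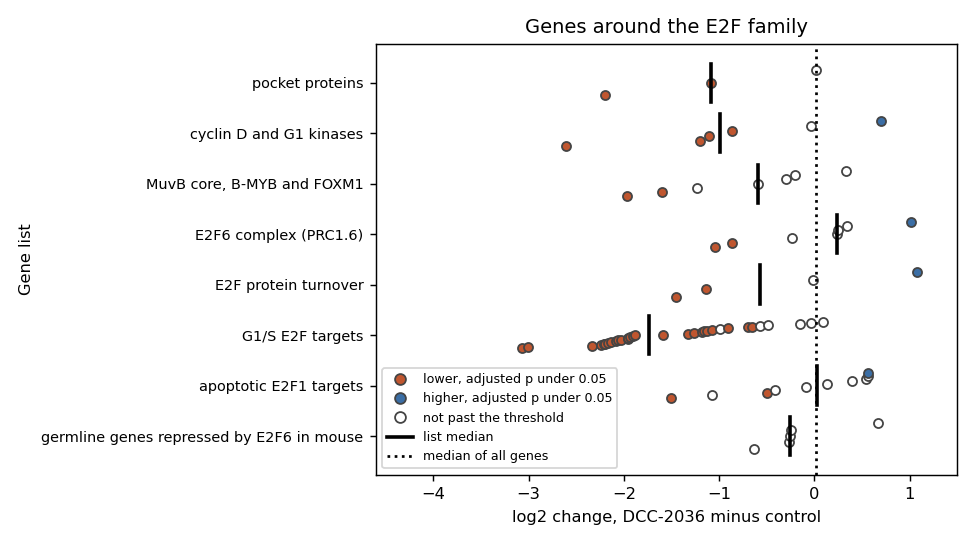
Log2 change (DCC-2036 minus control) of each measured gene in 8 lists around the E2F family. Orange genes fell and blue genes rose at an adjusted p under 0.05, open circles did not pass, thick lines are list medians and the dotted line is the median of all genes. The G1/S targets lie furthest left, with 26 of 32 lower, and the apoptotic targets centre near 0.

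Of 7 genes of the MuvB core and its partners, 2 fell, 0 rose and 5 did not pass (median -0.59), where 16% of all genes fell and 13.1% rose. FOXM1, the factor that joins MuvB to activate mitotic genes, had 4721, 5533 and 6918 in the control arrays and 1890, 1736 and 1971 with DCC-2036 (-1.60 ± 0.18, limma adjusted p = 0.00237). LIN9, a MuvB core subunit, fell (-1.97 ± 0.41), and its call was lost without control replicate 1 (-1.97) or 2 (-1.93). LIN54, the DNA-binding subunit (-1.23), and LIN37 (0.33) did not pass. Of 4 genes that control E2F protein stability, 2 fell, 1 rose and 1 did not pass, against 16% and 13.1% of all genes. CDC20, an activator of the anaphase-promoting complex, fell from 7514, 8439 and 8502 to 2718, 2913 and 3293 (-1.46 ± 0.15). CCNF, the cyclin F ubiquitin ligase subunit, fell (-1.14 ± 0.32), and FZR1, the other activator of the anaphase-promoting complex, rose (1.07 ± 0.27). The CCNF call was lost when control replicate 1 (-1.24), 2 (-1.03) or 3 (-1.14), or DCC-2036 replicate 1 (-0.82) or 3 (-1.15), was left out. That of FZR1 was lost when control replicate 1 (1.01) or 2 (0.93), or DCC-2036 replicate 2 (0.93) or 3 (1.00), was left out. SKP2, a ubiquitin ligase subunit, had -0.02 and did not pass, and its second record gave 0.51, also without passing.

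E2F6 itself had no named record, but 7 of 9 listed genes of its polycomb complex did. Of these, 1 rose, 2 fell and 4 did not pass (median 0.23), where 13.1% of all genes rose and 16% fell. RING1, a catalytic ubiquitin ligase of polycomb complexes, had 783, 851 and 729 in the control arrays and 1470, 1620 and 1696 with DCC-2036 (1.02 ± 0.14, limma adjusted p = 0.00435). CBX3, a heterochromatin protein, fell (-1.04 ± 0.14), as did L3MBTL2, a methyl-lysine reader (-0.86 ± 0.21), and MAX (0.34) did not pass. The L3MBTL2 call was lost when control replicate 1 (-0.85) or 3 (-0.77), or DCC-2036 replicate 2 (-0.71) or 3 (-0.86), was left out. Of 5 germline genes that E2F6 represses in mouse, 0 passed in limma, against the same shares of all genes. Also, 0 of the 5 had an unadjusted limma p under 0.05. Treated values all lay below control values in 1 of the 5, SMC1B, where this held for 24.3% of all genes. STAG3 (0.66) was dim on 5 arrays and brighter in DCC-2036 replicate 3 (110.7), and DDX4 (-0.63), SMC1B (-0.26) and SLC25A31 (-0.25) lay among the dimmer records.

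Of 10 genes that E2F1 is known to activate in cell death, 1 rose, 2 fell and 7 did not pass, close to the background shares, with a median of 0.02. PMAIP1, the BH3-only protein NOXA, had 6334, 6368 and 5441 in the control arrays and 2522, 1930 and 1982 with DCC-2036 (-1.50 ± 0.17, limma adjusted p = 0.00228). CASP8, an initiator caspase, fell (-0.50 ± 0.14), and BBC3, the BH3-only protein PUMA, rose (0.57 ± 0.16). The CASP8 call was lost without any 1 of the 6 arrays, at values between -0.54 and -0.44. That of BBC3 was lost when control replicate 2 (0.49) or 3 (0.53), or DCC-2036 replicate 1 (0.53), 2 (0.59) or 3 (0.58), was left out. APAF1, the apoptosome scaffold, had -1.07 and did not pass (limma adjusted p = 0.0609). It did pass without DCC-2036 replicate 3 (-1.37) and in other alternatives given in the closing section.

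The genes nearest to the 2 members with the smallest p were found by the root mean square difference of log2 values over the 6 arrays, after each gene was centred on its own mean. For E2F3 they were WDR33, a polyadenylation factor (0.06), ZNF839 (0.06) and ALMS1, a centrosome and basal body protein (0.06). The second record of WDR33 changed by 0.88, opposite in sign to its brightest record at -1.62. For E2F8 they were LCORL (0.16), PSG7 (0.20) and KIF20B, a kinesin of cell division (0.22), and none of these was as near as those of E2F3. PSG7 belongs to a family of near-identical genes, and whether its record reads PSG7 alone was not tested.

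Marker genes were set beside the cell line's labels by the brightness rank of their records. Brightness also differs between records for reasons other than abundance, and no receptor protein was measured, so these ranks do not test the labels. Among 5 epithelial markers, the keratins KRT8, KRT18 and KRT19 were bright and CDH1 (E-cadherin) was in the dimmest 25% of records. Of the hormone receptor and HER2 set, ESR1 and PGR were in the dimmest 25%, but ERBB2, the HER2 gene, was brighter than 82.2% of records and GATA3 than 58.1%. Of 4 leukocyte and 3 endothelial markers, 3 and 3 had means in the dimmest 25%, and all 3 fibroblast markers had means below the median record. DCN, a fibroblast marker that did not pass, was 492.3 in DCC-2036 replicate 3 and 41.7 to 106.2 on the other arrays. The summed signal of the epithelial markers was 12161 to 17728 in the control arrays and 27537 to 30569 with DCC-2036, set mostly by the keratins, of which KRT8 (1.24) and KRT19 (0.88) rose. EPCAM fell (-0.65, limma adjusted p = 0.0467), and CDH1 (-0.89) and KRT18 (0.68) did not pass. The summed signal of 4 mesenchymal or basal markers was 30284 to 32459 and 18378 to 20122, set mostly by VIM (-0.51) and AXL (-1.56), which fell. FN1 (1.25) and CD44 (-0.29) did not pass. GATA3 also fell (-0.68). The part of these marker differences in the E2F results was not tested.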

How the data were processed

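Total RNA was turned into oligo dT-primed double-stranded cDNA, labelled with Cy3 and hybridized to one-colour NimbleGen arrays, per the labels' protocols. The deposited table holds linear-scale intensity values, and the submitters' processing notes name RMA without a version. Background correction and probes per record are not stated in any source at hand. The table has no detection, slide or scan column, so no batch could be tested. Array medians lay between 265 and 274, and correlations of log2 values across genes between 0.964 and 0.978 within groups and 0.929 and 0.937 across groups.

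Gene names came from the platform's probe table (18188 records) or a RefSeq accession (678), and 26167 records stayed unnamed. Each gene was read from its record with the highest mean. Values were tested as log2(intensity + 1) with limma 3.58.1 in R 4.3.3 (two-sided, no covariate, Benjamini-Hochberg over 17185 genes, threshold 0.05). Python 3.11.15, pandas 2.3.3 and matplotlib 3.10.9 searched promoters and drew figures. The procedure was tested on simulated data with independent noise on each array, so that test does not cover arrays that deviate together. p-values measure the spread between these samples, whose separate origin rests on the labels' word that experiments were independent. Titles share replicate numbers, but deviations of same-numbered arrays correlated at -0.08, 0.04 and -0.09, so no block was used.

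Members and lists were chosen with earlier results of these data known, so no list counts as independent support. Genes named are all members, the 4 smallest p of each list, lists of 4 or fewer in full, up to 5 genes passing against their list, and the genes nearest to 2 members. Alternatives are given in the closing section.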

Additional observations from a re-analysis of the deposited data

How the results depend on the processing

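The 5 E2F activators and atypical repressors that fell did so at an adjusted p under 0.05 in each of the alternatives in which they were tested, and the family count of 7 lower members ranged from 5 to 7. With the replicate number as a block (replicate block), TFDP1 (adjusted p = 0.0708) and TFDP2 (0.0602) did not pass. That block gave 1376 higher and 1793 lower genes against 2257 and 2745 without it, and 0 higher genes among the cyclin D and G1 kinases, the protein turnover genes and the apoptotic targets. Same-numbered arrays did not deviate together, so the numbers are not taken as pairs. At an adjusted p under 0.01, 884 genes were higher and 1291 lower. The cyclin D, turnover and apoptotic lists then had 0 higher, and the MuvB, E2F6 complex, turnover and apoptotic lists 1 lower each. Leaving out records below the median gave 1 higher in the MuvB list, 2 in the E2F6 complex and 3 among apoptotic targets, with fewer genes tested. TFDP2 was among the genes left out, and E2F5 passed (limma adjusted p = 0.0472). The 7 lower members in that setting were therefore not the same 7. The trend and robust setting gave 2 higher in the E2F6 complex, the second brightest record 3 higher apoptotic targets, and repeated quantile normalization 1 lower apoptotic target. For these list counts the cause was not tested. Among the G1/S targets, EZH2 and CDCA7 passed with the trend and robust setting, among others (limma adjusted p = 0.0262 and 0.0248). APAF1 passed with the trend and robust setting, without the dimmest 25% of records and with the replicate block (limma adjusted p = 0.0351, 0.0395 and 0.0411). The apoptotic list had 3 lower genes with the trend and robust setting and also without the dimmest 25% of records.

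Leaving out each array in turn gave 1421 to 1886 higher and 1721 to 2307 lower genes over the whole table. The ranges were 0 to 1 higher for the cyclin D, turnover and apoptotic lists, and 1 to 2 lower for the MuvB, E2F6 complex, turnover and apoptotic lists. Without DCC-2036 replicate 3 the sign of E2F4, which did not pass, turned (-0.029), with a range of -0.029 to 0.049 over the 6 arrays left out. Among other genes that did not pass, the sign also turned for RBL2 (-0.12 to 0.10), SKP2 (-0.20 to 0.089) and CDT1 (-0.025 to 0.16) over the same 6 fits. SLBP, which did not pass, gave 0.0076 with repeated quantile normalization. SKP2 gave 0.25 as a mean of its records and 0.51 with its second record, and WDR33 gave 0.88 with its second record. Over 56 named genes, 805 values kept sign and call, 58 lost the call, 19 gained it and 12 changed sign. The table has no detection column, so how far dim records such as TFDP2 stand above background is not known.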
